A study of Caenorhabditis elegans with 33 samples.

Results

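The genes described here encode the precursors of small secreted signalling peptides: the FMRFamide-like peptides (flp), the neuropeptide-like proteins (nlp) and the insulin-like peptides (ins). A gene was included when its WormBase symbol was flp-, nlp- or ins- followed by a number, a rule that uses names and no measured value. Of the 21975 genes in the expression table, 140 met this rule, of which 34 lie on the X chromosome and 106 on autosomes. The flp family has 31 genes (13 X-linked, 18 autosomal), the nlp family 71 (19 X-linked, 52 autosomal) and the ins family 38 (2 X-linked, 36 autosomal).

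Hermaphrodites carry a pair of X chromosomes where males have a single X, and in hermaphrodites the dosage compensation complex binds both and lowers their transcription. DPY-27 is a subunit of condensin IDC, the condensin of that complex, DPY-21 is the H4K20me2 demethylase of the complex, and CEC-4 is a chromodomain protein that tethers methylated H3K9 chromatin to the nuclear lamina. Peptide precursors are cut and amidated in dense core vesicles and released mostly from neurons, where the peptides act on G protein-coupled receptors and shape sleep, egg laying, feeding and sensory behaviour. Insulin-like peptides act through the DAF-2 receptor, and several nlp genes are instead made in the epidermis as antimicrobial peptides.

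Messenger RNA of whole Caenorhabditis elegans hermaphrodites at the L3 larval stage was sequenced in 33 libraries, 3 in each of 11 conditions. TIR-1; dpy-27::AID; cec-4 larvae, with and without auxin, carried the degron-tagged allele dpy-27::AID (xoe41), the cec-4(ok3124) mutation and TIR1, a plant F-box protein expressed from a transgene under the ubiquitous eft-3 promoter, so that auxin leads to degradation of DPY-27. TIR-1; dpy-27::AID larvae, with and without auxin, carried the same degron allele and TIR1 but an unmutated cec-4, and dpy-27::AID larvae, with and without auxin, carried the degron allele and no TIR1. The dpy-21; cec-4 larvae carried dpy-21(e428), a null allele, with cec-4(ok3124) and received no auxin, dpy-21 larvae carried dpy-21(e428) alone and received none, cec-4 larvae carried cec-4(ok3124) and were grown with and without auxin, and WT larvae were N2 without auxin. Larvae were placed on the plates as synchronized L1 for 24 hours at 20 °C, and the auxin plates held 4 mM auxin. The labels do not say that replicates were separate cultures, so the p-values measure only the spread between these libraries, which may be technical. RNA came from whole larvae, so fewer cells of a type and less RNA per cell cannot be told apart.

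Values were deposited as FPKM, fragments scaled to the length of the transcript and to a factor for each library. Median-of-ratios scaling, which levels the typical gene between libraries, shifted each library by at most 0.0009 on the log2 scale. The deposited values were thus already level by that measure. Differences are given on the scale of log2(FPKM + 0.1), which understates the change of genes with low values. A gene was called when its adjusted p, from one limma fit to the 13309 genes with a mean of at least 1 FPKM and a Benjamini-Hochberg adjustment within each comparison, was under 0.05. Of the members, 123 entered that fit (32 X-linked, 91 autosomal). Where members are counted at an unadjusted p under 0.05, the share of all tested genes at that threshold is not given. Such counts cannot show whether members differ from other genes. The libraries' FPKM sums lay between 1.41 M and 1.67 M except in WT replicates 1 (2.55 M) and 2 (2.02 M). From the spacing of low values, 1 FPKM of a 1 kb transcript corresponded to about 11.2 to 21.3 fragments in a library. The cec-4 transcript was listed at 0 in all 6 libraries labelled dpy-21; cec-4 or cec-4 without auxin and in 2 of 3 labelled cec-4 with auxin, against 5.34 to 19.6 FPKM in WT. In the libraries labelled TIR-1; dpy-27::AID; cec-4 it was 0, 5.69 and 0 FPKM with auxin and 3.46, 8.99 and 0 FPKM without, and the range overlapped that of TIR-1; dpy-27::AID. The degron acts on the protein, so the dpy-27 transcript does not check the labels. Whether e428 changes the level of the dpy-21 transcript is not given in the sources used here, so no check is drawn from it. An entry of 0 can be a failed estimate in this table, since 6 of the 215 genes in the lists used beside the peptides, among them the muscle gene unc-22 and the junction gene ajm-1, were listed at 0 in all 33 libraries.

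The flp genes formed the family with the highest typical level. The median of the members' mean FPKM over the 33 libraries was 84.4 for the X-linked flp genes and 112 for the autosomal ones, 24.6 and 65.0 for the X-linked and autosomal nlp genes, and 2.49 and 7.01 for the X-linked and autosomal ins genes. The typical tested gene had 14.1 FPKM on the X and 15.6 FPKM on an autosome. Precursors are short, with a median exon length of 643 bases for flp, 527 for nlp and 425.5 for ins genes, over all members. Over the genes that entered the fit the median was 1412 bases on the X and 1306 on autosomes. All 33 libraries listed a value above 0 for 27 flp genes, 55 nlp genes and 11 ins genes, and ins-8 was listed at 0 throughout.

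The most abundant flp transcripts were flp-24 (chromosome III, 725119 to 726155 in WBcel235), whose peptides are released by the ALA neuron in stress-induced sleep, with a mean of 320 FPKM, and the X-linked flp-12 (X, 4591281 to 4592350), with 279 FPKM. They were followed on autosomes by flp-15 (270.3 FPKM) and flp-9 (257 FPKM), and on the X by flp-11, the transmitter of the RIS sleep neuron (183 FPKM), and flp-26 (167 FPKM). The nlp family reached higher. Its leading members were nlp-24 (1570 FPKM), nlp-33 (1197 FPKM), an epidermal antimicrobial peptide gene, and nlp-36 (799 FPKM), all autosomal, and its leading X-linked members were nlp-49 (450 FPKM), which encodes a ligand of the SEB-3 receptor, nlp-3 (152 FPKM), which acts in the egg-laying neuron HSN, and nlp-14 (112 FPKM), an orcokinin-like gene. Of the insulins, ins-27 (199 FPKM), ins-35 (109 FPKM) and ins-33 (79.4 FPKM) led on autosomes, and the X-linked pair, ins-9 (3.37 FPKM) and ins-39 (1.60 FPKM), lay low.

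**Figure D1:**
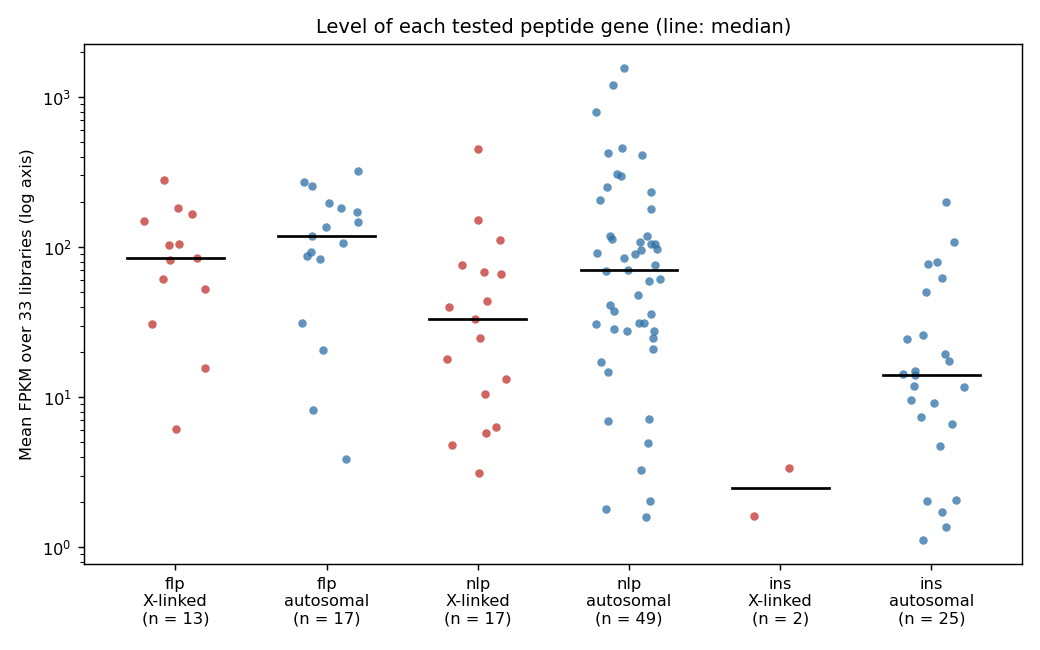
Each point is 1 of the 123 tested peptide genes, placed by its mean FPKM over 33 libraries on a log axis, in columns for the X-linked (red) and autosomal (blue) members of each family, with lines at the medians over tested members. These lie at 84.4 and 118 FPKM for X-linked and autosomal flp genes, 33.4 and 69.9 for nlp genes, and 2.49 and 14.1 for ins genes.

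Members also differed in how far they moved across the 11 conditions. The range of the condition means spanned a median of 1.18 on the log2 scale for flp genes, 1.54 for nlp genes and 3.48 for ins genes, and the widest were flp-8 (5.45), flp-25 (3.83) and flp-4 (3.44), nlp-56 (5.34), nlp-23 (4.83) and nlp-32 (4.28), and ins-39 (6.42), ins-9 (6.37) and ins-20 (6.30). All 9 had a mean under 10 FPKM and were listed at 0 in 5 to 27 libraries. The spread between replicates had the same order. The median SD within a condition was 0.47 and 0.37 on the log2 scale for X-linked and autosomal flp genes, 0.65 and 0.56 for nlp genes, and 1.93 and 1.60 for ins genes, against 0.63 and 0.59 for all tested genes on the X and on autosomes. A difference of a given size was therefore easier to resolve among flp genes than among ins genes.

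Many members sit side by side. With a gap of at most 20 kb, 45 members fell into 13 groups of neighbours. The largest nlp group, nlp-34, nlp-31, nlp-30, nlp-29, nlp-28 and nlp-27 (V, 3978825 to 3989770), is the nlp-29 cluster of antimicrobial peptides induced in the epidermis by fungal infection and wounding. The X holds nlp-45, nlp-22, nlp-23 and nlp-2 (X, 2337600 to 2344766), flp-7 with nlp-49 (X, 5885865 to 5905345), and flp-28, flp-3 and flp-2 (X, 10087314 to 10095245). Neighbours with similar sequence may share fragments in quantification, and ins-13 and nlp-76 overlap another coding gene on the same strand, so their values are uncertain.

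For each library the median over X-linked members, each centred on its mean over the 33 libraries, was set against the same median over autosomal members, and the X minus autosome difference is given for members and for all tested genes. In TIR-1; dpy-27::AID; cec-4 with auxin the members' difference was 0.52, 0.49 and 0.53, against -0.36, -0.35 and -0.60 without auxin. In TIR-1; dpy-27::AID with auxin it was 0.62, 0.56 and 0.45, against -0.10, -0.21 and -0.11 without auxin. In both strains every auxin library lay above every library without auxin. The dpy-21; cec-4 libraries gave 0.46, 0.48 and 0.29, the dpy-21 libraries 0.42, 0.35 and 0.45, the cec-4 libraries without auxin 0.01, -0.54 and -0.29, and the WT libraries -0.18, -0.36 and -0.49. Both dpy-21 genotypes lay above WT and cec-4 without overlap. The same difference over all tested genes was 0.50 to 0.63 in TIR-1; dpy-27::AID; cec-4 with auxin and 0.39 to 0.47 in TIR-1; dpy-27::AID with auxin. Without auxin it was -0.36 to -0.12 in TIR-1; dpy-27::AID; cec-4 and -0.03 to 0.09 in TIR-1; dpy-27::AID. It was 0.36 to 0.37 in dpy-21; cec-4, 0.18 to 0.35 in dpy-21, -0.37 to -0.33 in untreated cec-4 and -0.47 to -0.28 in WT.

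A pair of libraries stood apart from their replicates. In dpy-27::AID with auxin, which has no TIR1, replicate 3 had an X minus autosome difference of 0.43 over members and 0.43 over all genes, against -0.45 and -0.40 over members and -0.34 and -0.37 over all genes in replicates 1 and 2. It thus lay with the TIR-1; dpy-27::AID auxin libraries and against its label. In dpy-27::AID without auxin, replicate 3 had centred medians of 0.20 and 0.38 for X-linked and autosomal flp genes and 0.42 and 0.52 for nlp genes, against -0.83 and -0.38 for flp genes and -0.71 and -0.61 for nlp genes in replicate 1 and similar values in replicate 2. The gap between X-linked and autosomal medians, or the count of calls, is given with and without them in the comparisons that use them.

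**Figure D2:**
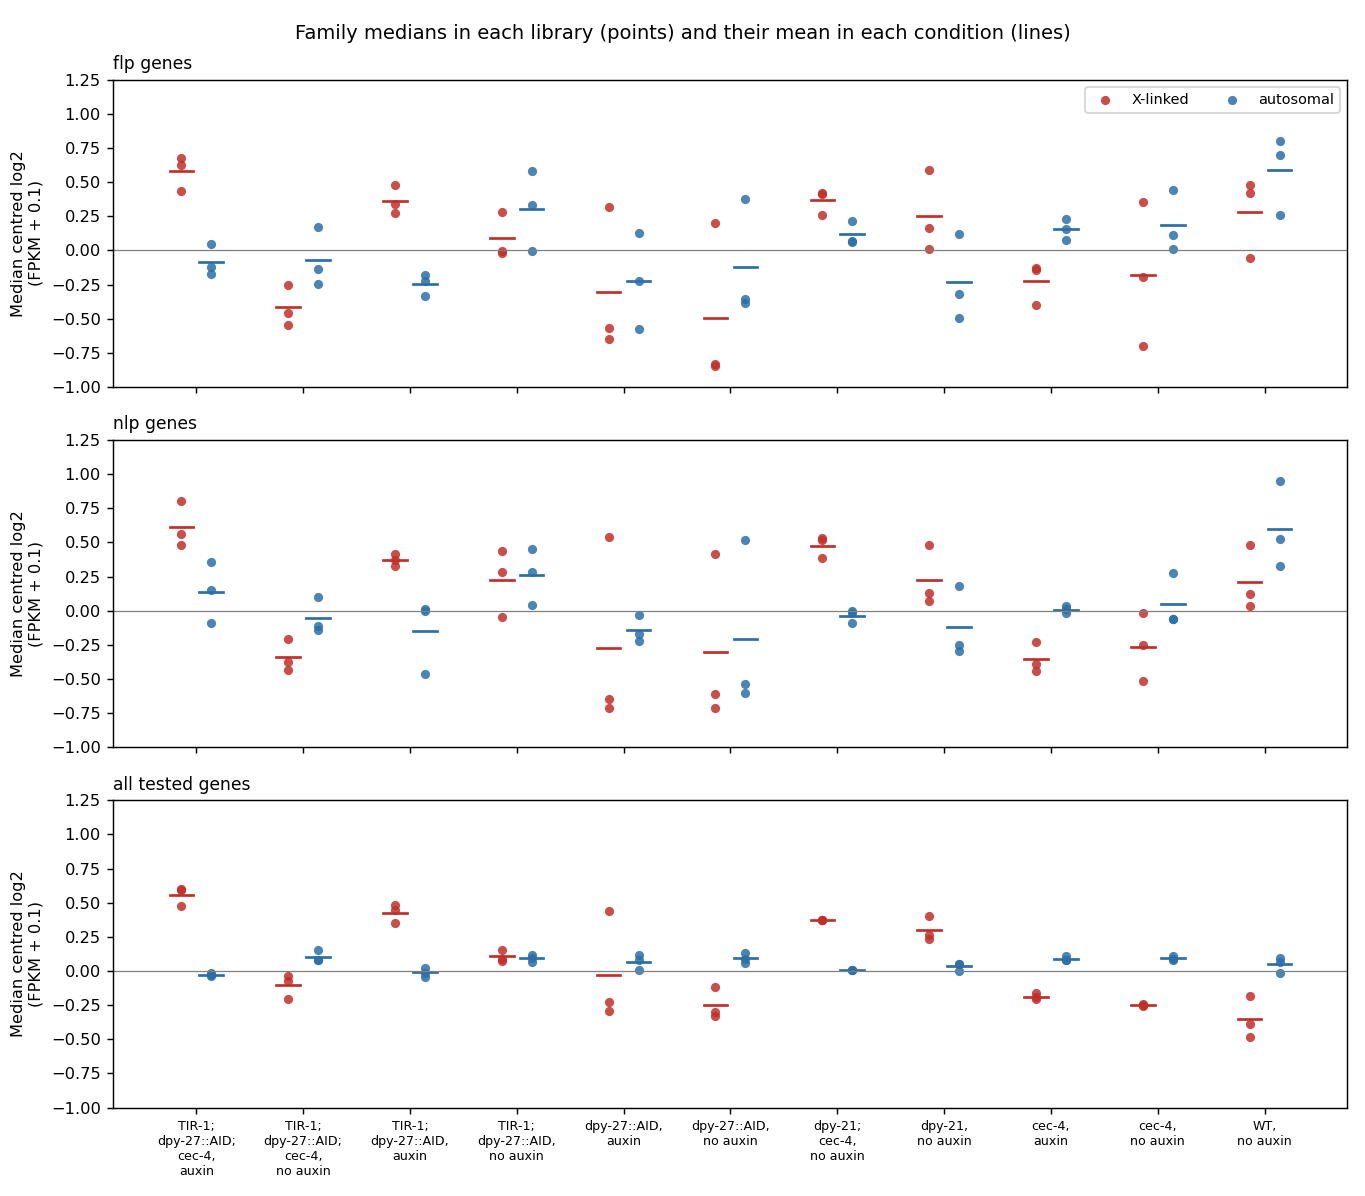
Points show, for each library, the median over X-linked (red) or autosomal (blue) members of log2(FPKM + 0.1) centred on each gene's mean over 33 libraries, for flp genes, nlp genes and all 13309 tested genes, and lines mark the mean of the 3 libraries. In TIR-1; dpy-27::AID; cec-4 with auxin all 3 X-linked points lie above all 3 points without auxin, the means of the autosomal peptide points are highest in WT, and dpy-27::AID replicate 3 stands apart with auxin and, for peptide genes, without it.

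Auxin in the strain labelled TIR-1; dpy-27::AID; cec-4 gave the largest number of called peptide genes of the 14 comparisons. Comparing TIR-1; dpy-27::AID; cec-4 with auxin against no auxin, 14 members rose and 0 fell, while 6.4% of all tested genes were called. Of the 32 X-linked members 10 rose (5 flp and 5 nlp genes), against 14.8% of all X-linked genes, and of the 91 autosomal members 4 rose, against 0.934% of all autosomal genes. The median difference was 1.03 for X-linked and 0.06 for autosomal members, against 0.67 and -0.13 over all tested X-linked and autosomal genes. Of the X-linked members 29 of 32 lay above 0, with medians of 1.07 for flp genes and 1.01 for nlp genes. In 20 of the 32 X-linked members all auxin libraries lay above all libraries without auxin, against 44.5% of all X-linked genes.

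Among the X-linked genes, nlp-53 had 47.3, 76.7 and 82.4 FPKM with auxin, against 20.9, 19.5 and 23.2 FPKM without. Every auxin library was above every library without auxin, and the difference was 1.66 ± 0.29 (log2, SE, n = 3 each; limma adjusted p = 0.00175). The flp-12 transcript had 488, 406 and 444 FPKM with auxin, against 167, 172 and 191 FPKM without (1.33 ± 0.27, adjusted p = 0.00434), again without overlap. The buccalin-related gene nlp-1, whose peptide signals from the AWC olfactory neuron, had 120, 152 and 151 FPKM with auxin, against 60.8, 50.2 and 41.7 FPKM without (1.48 ± 0.30, adjusted p = 0.00524). For nlp-66 the values were 43.3, 67.4 and 78.1 FPKM with auxin, against 6.0, 11.8 and 20.3 FPKM without (2.42 ± 0.51, adjusted p = 0.00595), the widest change among the X-linked genes called.

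Smaller differences were called for flp-32, with 161, 161 and 147 FPKM with auxin, against 62.9, 79.9 and 61.5 FPKM without (1.21 ± 0.30, adjusted p = 0.0179). The tachykinin-like gene flp-7, which acts in a neuroendocrine axis that drives intestinal fat loss, had 92.2, 97.6 and 132 FPKM with auxin, against 38.4, 48.6 and 52.8 FPKM without (1.19 ± 0.31, adjusted p = 0.0209). Its neighbour nlp-49 had 449, 545 and 485 FPKM with auxin, against 288, 267 and 334 FPKM without, and was not called. Both genes had no overlap between the groups. The sleep peptide gene flp-11 had 228, 291 and 188 FPKM with auxin, against 116, 158 and 130 FPKM without (0.79 ± 0.23, adjusted p = 0.0340), and the egg-laying peptide gene nlp-3 had 233, 197 and 206 FPKM with auxin, against 84.9, 108 and 110 FPKM without (1.08 ± 0.30, adjusted p = 0.0323). Outside the rule for named genes, and named after their values were seen, were flp-19, with 129, 116 and 122 FPKM with auxin and 66.7, 57.5 and 63.1 FPKM without, and nlp-101, with 139, 85.6 and 132 FPKM with auxin and 61.4, 44.3 and 42.2 FPKM without.

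The autosomal genes that rose lay outside the neuronal flp family. In the nlp-29 cluster all 6 genes lay above 0 (median 1.48) and 3 were called. The gene nlp-29 itself had 854, 1128 and 1204 FPKM with auxin, against 294, 242 and 359 FPKM without (1.83 ± 0.45, adjusted p = 0.0154), and nlp-27 had 890, 817 and 800.5 FPKM with auxin, against 269, 294 and 346 FPKM without (1.47 ± 0.31, adjusted p = 0.00538). For nlp-34, named after its values were seen, the libraries gave 1206, 1356 and 1403 FPKM with auxin, against 272, 167 and 165 FPKM without (2.75 ± 0.77, adjusted p = 0.0321). None of the 3 genes overlapped between the groups. The insulin gene ins-20 had 25.3, 18.7 and 47.5 FPKM with auxin, against 2.96, 0.299 and 0 FPKM without (adjusted p = 0.0437), and its difference of 5.84 depends on the added constant, being 4.08 with a pseudocount of 1 and 7.08 with 0.01. It was the one insulin gene called in any of the 14 comparisons.

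Other lists were read beside these genes. Of the 12 molting genes 11 were tested and 7 fell, 0 rose, with a median of -1.94 and a summed level of 436 to 675 FPKM with auxin, against 1679 to 2411 FPKM without. Of 10 epidermal markers 7 were tested, dpy-7 fell and the median was -1.52, with 856 to 2428 FPKM with auxin, against 4723 to 5737 FPKM without. Of 12 neuronal markers 10 were tested, and sng-1 and unc-18, both X-linked, rose, with 906 to 993 FPKM with auxin, against 734 to 892 FPKM without. The intestinal list had 2 genes higher and 2 lower of 9 tested, and 0 of 7 muscle and 0 of 8 germline markers were called by limma. The part that molting or the share of epidermis had in the peptide differences was not tested. Leaving out a library lowered the 14 calls to 9, 8 and 8 without auxin replicates 1, 2 and 3 and to 8, 7 and 7 without the untreated replicates 1, 2 and 3, while flp-12, nlp-1, nlp-27 and nlp-53 were called under all 14 alternatives.

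**Figure D3:**
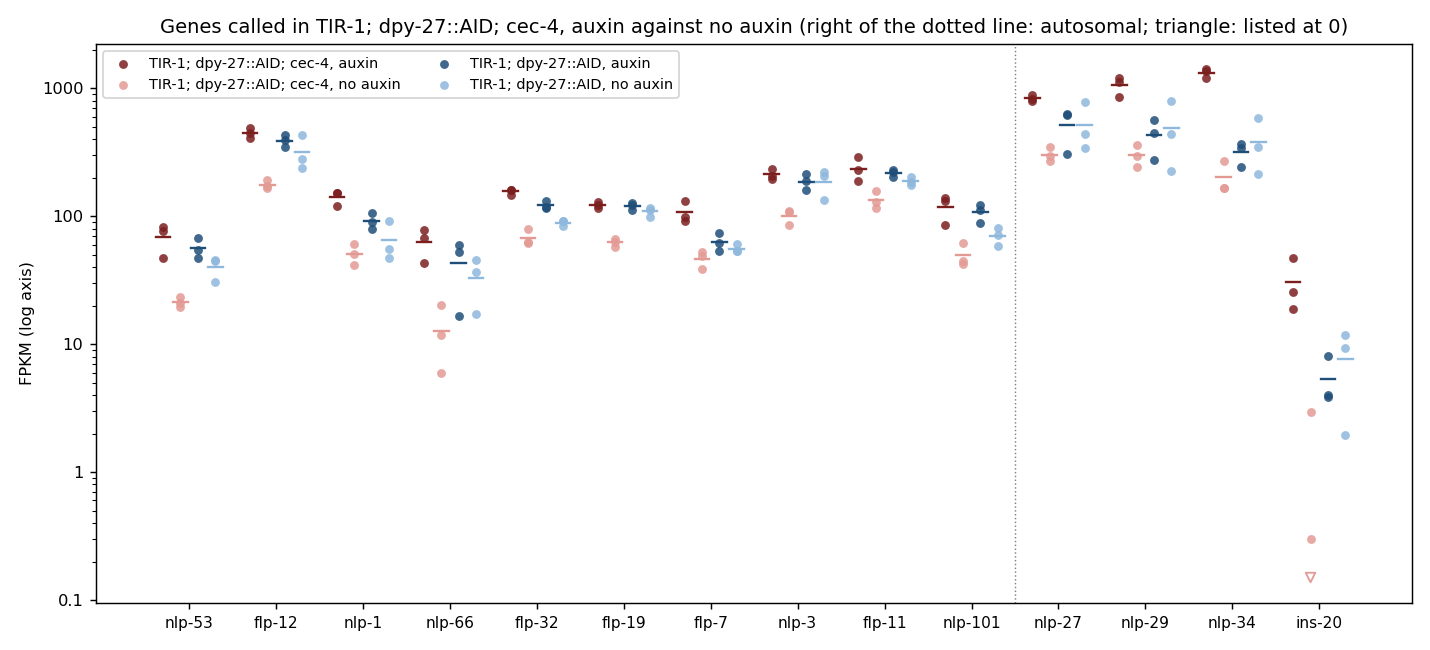
Points show the FPKM of each library on a log axis for the 14 genes called in TIR-1; dpy-27::AID; cec-4, with lines at the condition means, an open triangle for a library listed at 0, and autosomal genes right of the dotted line. For flp-12, nlp-1, nlp-53 and the other genes drawn, the auxin libraries of TIR-1; dpy-27::AID; cec-4 lie above those without auxin. The 14 genes were chosen by their calls in that strain. None of them was called in TIR-1; dpy-27::AID, where 0.413% of all tested genes were. This does not show that the strains differ, and limma called no member for the interaction of auxin and cec-4.

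In the TIR1 strain with an unmutated cec-4 no member was called. Comparing TIR-1; dpy-27::AID with auxin against no auxin, limma called 0 members, while 0.413% of all tested genes were called, and 1 X-linked and 15 autosomal members had an unadjusted p under 0.05. The median difference was 0.25 for X-linked and -0.39 for autosomal members, against 0.34 and -0.10 over all tested genes, and the gap between the members' medians was 0.64. The X-linked flp genes had a median of 0.34 and the X-linked nlp genes 0.03. Of the 12 molting genes 11 were tested and all lay above 0, let-653 and noah-1 rose, and the list's summed level was 1927 to 3328 FPKM with auxin, against 488 to 1676 FPKM without, a direction opposite to that in TIR-1; dpy-27::AID; cec-4. Its part in the peptide differences and in the interaction was not tested. Of the X-linked members, 9 of 32 had all auxin libraries higher, against 25.8% of all X-linked genes, and of the autosomal members 20 of 91 had all auxin libraries lower, against 10.2% of all autosomal genes. The member nearest the threshold was flp-6, expressed in the AFD thermosensory neuron, with 99.2, 92.0 and 91.5 FPKM with auxin, against 275, 196 and 129 FPKM without (-1.02, adjusted p = 0.0950).

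Both untreated strains entered these comparisons at different levels. The gene flp-12 had 392, 431 and 347 FPKM in TIR-1; dpy-27::AID with auxin, against 431, 280 and 240 FPKM without, so the untreated range overlapped the treated one. For flp-12 the ranges of TIR-1; dpy-27::AID; cec-4 and TIR-1; dpy-27::AID thus overlapped with auxin, and without auxin every TIR-1; dpy-27::AID; cec-4 library was lower. The interaction of auxin and cec-4 was tested directly, and limma called 0 members, while 1.44% of all tested genes were called. Its medians were 0.79 for X-linked and 0.58 for autosomal members, against 0.35 and -0.02 over all tested genes. At an unadjusted p under 0.05 were 9 X-linked and 13 autosomal members, with no share of all genes at that threshold to set beside them. The member nearest the threshold was nlp-27 (1.46, adjusted p = 0.0867). Among the auxin-treated larvae, TIR-1; dpy-27::AID; cec-4 against TIR-1; dpy-27::AID had 0 members called by limma, with 2.28% of all tested genes called. At an unadjusted p under 0.05 were 4 X-linked and 10 autosomal members. The medians were 0.12 and 0.25 for X-linked and autosomal members, against 0.11 and -0.02 over all tested genes. The molting genes summed to 436 to 675 FPKM in TIR-1; dpy-27::AID; cec-4, against 1927 to 3328 FPKM in TIR-1; dpy-27::AID. Among them let-653 and noah-1 were called lower, and their part was not tested.

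Set against dpy-27::AID on auxin, which lacks TIR1, TIR-1; dpy-27::AID on auxin had a median difference of 0.67 for X-linked and -0.03 for autosomal members, against 0.46 and -0.07 over all tested genes. All 13 X-linked flp genes lay above 0 (median 0.78), and 10 of 32 X-linked members had all TIR-1; dpy-27::AID libraries higher, against 23.6% of all X-linked genes. By limma 0 members were called, while 1.31% of all tested genes were, and 13 X-linked and 6 autosomal members had an unadjusted p under 0.05. Without dpy-27::AID replicate 3 the gap between the X-linked and autosomal medians was 1.002, against 0.70 with it, and 5 members were called, flp-19, flp-28, ins-26, nlp-27 and nlp-49. The share of all tested genes called in that fit is not given. The X-linked gene nlp-49 had 613, 561 and 489 FPKM in TIR-1; dpy-27::AID, against 217, 280 and 626 FPKM in dpy-27::AID, and flp-28 had 234, 199 and 172 FPKM, against 79.2, 94.5 and 213 FPKM. For both genes dpy-27::AID replicate 3 alone lay within or above the range of TIR-1; dpy-27::AID.

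Auxin without TIR1 was followed by no called member. In dpy-27::AID with auxin against no auxin the medians were 0.11 for X-linked and 0.04 for autosomal members, with 0 members and 0% of all tested genes called by limma and 2 X-linked and 5 autosomal members at an unadjusted p under 0.05. The gap between those medians was 0.07, -0.12 without replicate 3 with auxin and 0.10 without replicate 3 without auxin. In cec-4 with auxin against no auxin the medians were -0.10 and -0.05, with 0 members called by limma, 0.00751% of all tested genes called, and 1 X-linked and 3 autosomal members at an unadjusted p under 0.05.

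**Figure D4:**
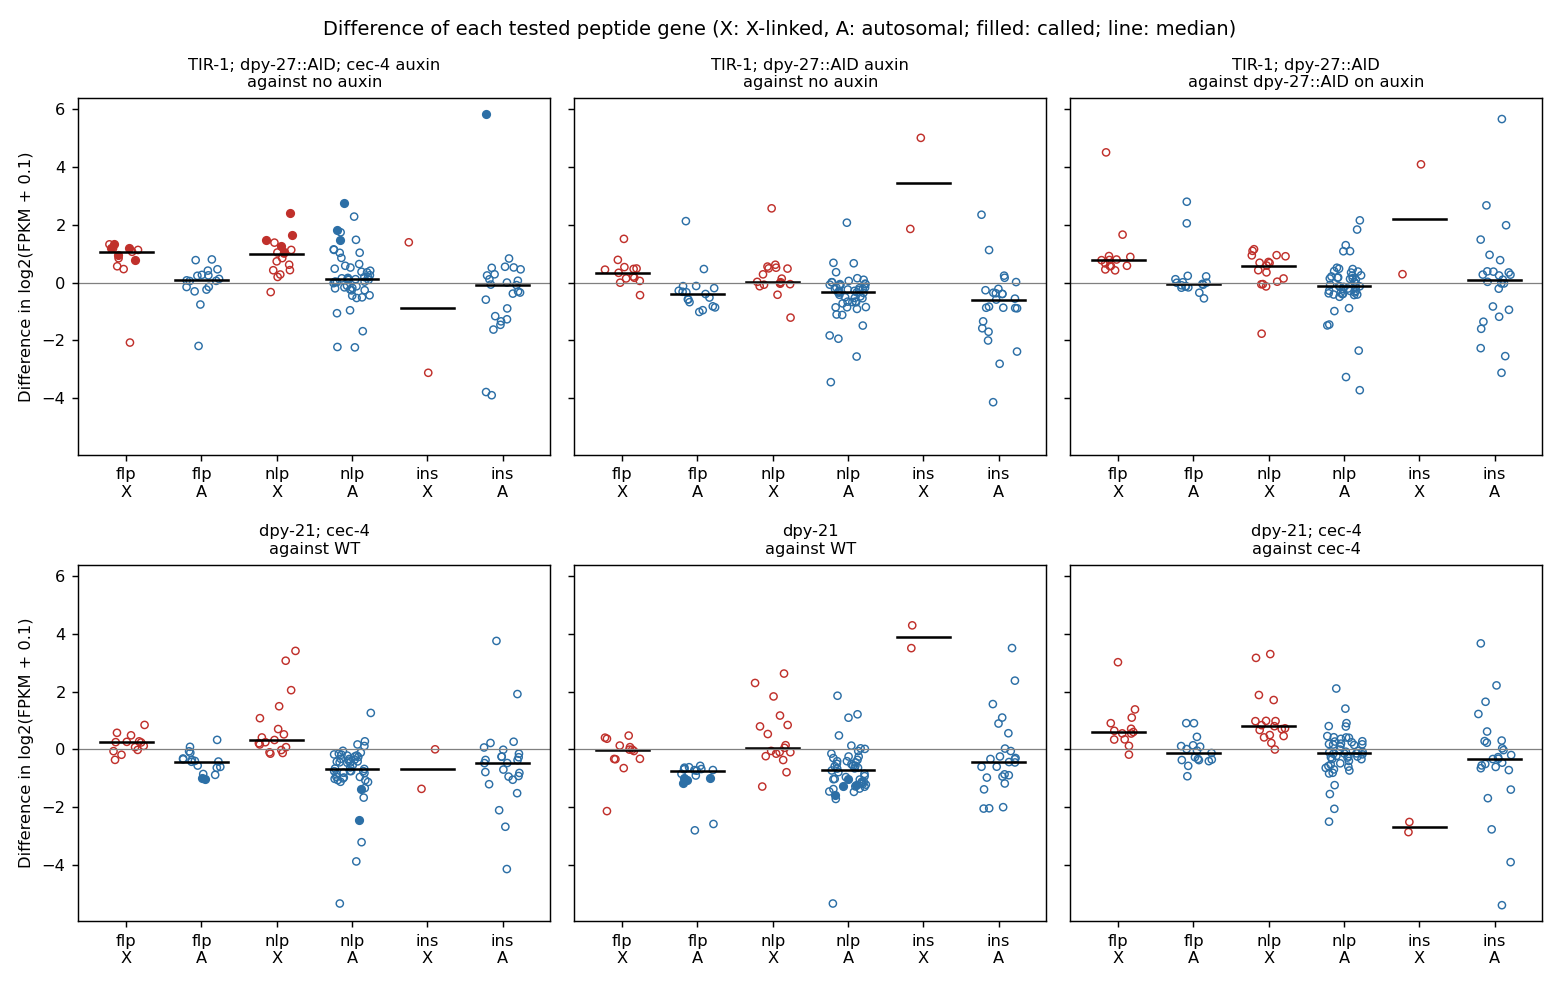
Each panel shows 1 comparison, with a point for the difference in log2(FPKM + 0.1) of every tested member in columns by family and linkage, filled points for called genes and lines at the medians. In the auxin comparison of TIR-1; dpy-27::AID; cec-4 the X-linked flp and nlp medians lie at 1.07 and 1.01, and in dpy-21 against WT the autosomal flp genes all lie below 0.

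Loss of DPY-21 was compared with WT. In dpy-21 against WT 8 members fell and 0 rose, all 8 of them autosomal, while 3.66% of all tested genes were called and 1.47% of all autosomal genes were called lower. The median difference was 0.02 for X-linked and -0.69 for autosomal members, against 0.66 and 0.00 over all tested genes. The X-linked members thus lay near 0 as deposited, and the gap between them and the autosomal members was 0.71. Scaled to equal FPKM sums, X-linked flp and nlp genes had medians of 0.31 and 0.37, against 0.95 over all tested X-linked genes. The autosomal flp genes lay below 0 in 17 of 17 cases (median -0.74) and the autosomal nlp genes in 42 of 49 (median -0.73). Of the 91 autosomal members, 27 had all dpy-21 libraries lower, against 8.69% of all autosomal genes.

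The largest of these differences was in nlp-35, with 84.5, 57.9 and 23.8 FPKM in dpy-21, against 154, 129 and 154 FPKM in WT (-1.57 ± 0.33, log2, SE, n = 3 each; limma adjusted p = 0.0113). The sleep peptide gene flp-24 had 336, 210.2 and 284 FPKM in dpy-21, against 722, 524 and 434 FPKM in WT (-1.01 ± 0.23, adjusted p = 0.0163), and flp-16 had 161, 139 and 111 FPKM in dpy-21, against 258, 207 and 522 FPKM in WT (-1.16 ± 0.27, adjusted p = 0.0180). No dpy-21 library reached the lowest WT library in these 3 genes. The flp-21 gene, whose peptide is a ligand of the foraging receptor NPR-1, had 121, 82.8 and 104.4 FPKM in dpy-21, against 178, 163 and 332 FPKM in WT (-1.06 ± 0.30, adjusted p = 0.0491). The other genes that fell were nlp-11 (-1.02 ± 0.27), nlp-41 (-1.29 ± 0.34), nlp-43 (-1.24 ± 0.34) and flp-27 (-0.999 ± 0.28), with adjusted p of 0.0321 to 0.0453, and their libraries did not overlap either.

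**Figure D5:**
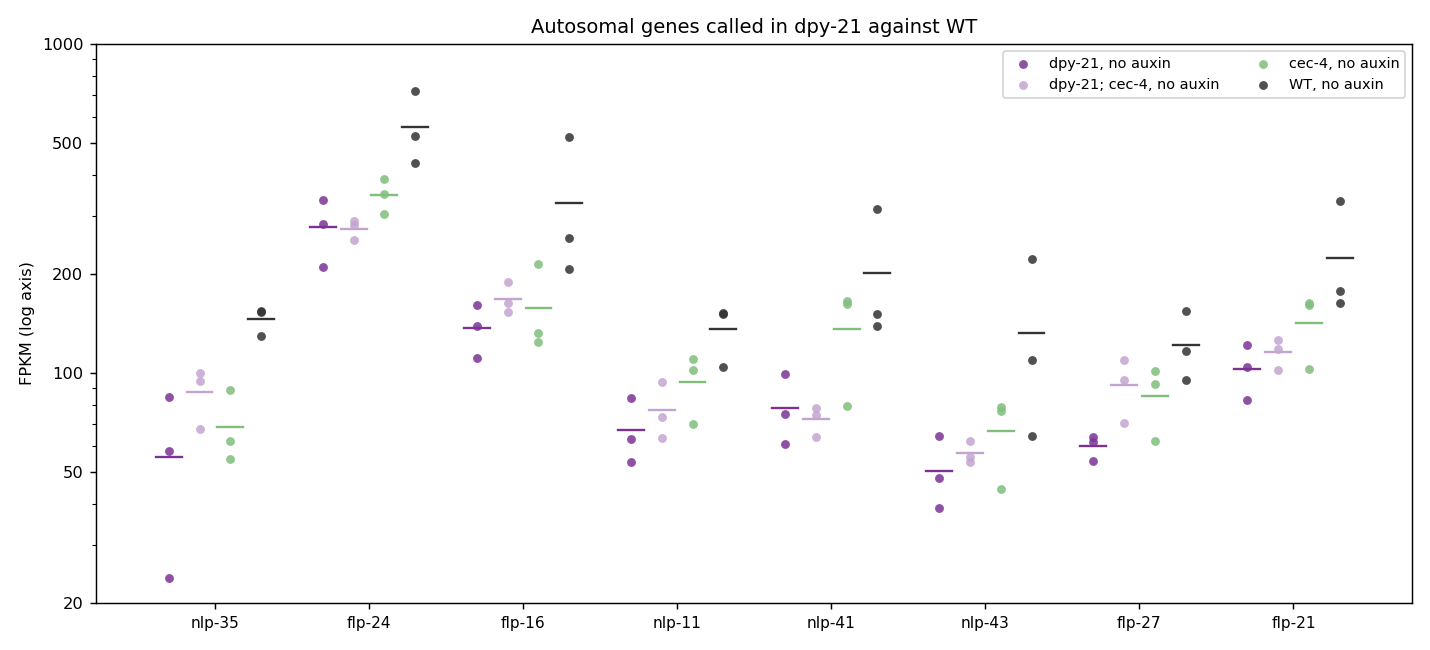
Points show the FPKM of each library on a log axis for the 8 genes called in dpy-21 against WT, with lines at the condition means. For each gene the 3 dpy-21 libraries lie below the 3 WT libraries, and the dpy-21; cec-4 and cec-4 libraries, which were not part of this comparison, mostly lie below the WT mean as well.

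In dpy-21; cec-4 against WT 4 members fell and 0 rose, all autosomal, while 4.3% of all tested genes were called and 1.72% of all autosomal genes were called lower. They were flp-24 (253, 289 and 281 FPKM in dpy-21; cec-4, against 722, 524 and 434 FPKM in WT; -0.997 ± 0.23, adjusted p = 0.0165), nlp-41 (-1.38 ± 0.34, adjusted p = 0.0224), the antimicrobial gene nlp-28 of the nlp-29 cluster (33.3, 5.46 and 27.4 FPKM, against 89.3, 97.2 and 98.4 FPKM; -2.46 ± 0.65, adjusted p = 0.0343) and flp-14 (151, 144 and 103 FPKM, against 324, 250.3 and 240.5 FPKM; -1.04 ± 0.28, adjusted p = 0.0376). All 4 were lower in every dpy-21; cec-4 library than in any WT library, as were 21 of 91 autosomal members, against 8.91% of all autosomal genes. The medians were 0.24 for X-linked and -0.48 for autosomal members, against 0.73 and -0.03 over all tested genes.

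Each comparison with WT uses the same 3 WT libraries, whose peptide levels were high. Centred autosomal medians in WT were 0.70, 0.26 and 0.80 for flp genes and 0.52, 0.33 and 0.95 for nlp genes. The autosomal median of the members was negative in all 6 comparisons with WT as deposited. In cec-4 against WT, which leaves dosage compensation proteins in place, the medians were -0.39 for X-linked and -0.48 for autosomal members, against 0.08 and 0.03 over all tested genes, and limma called 0 members and 0.195% of all tested genes, with 3 X-linked and 17 autosomal members at an unadjusted p under 0.05. Scaled to equal FPKM sums, the cec-4 medians were -0.06 and -0.07 for X-linked flp and nlp genes and -0.15 and -0.22 for autosomal ones. The medians over all tested genes moved with them, to 0.40 on the X and 0.36 on autosomes, so the members still lay lower. In untreated TIR-1; dpy-27::AID against WT the medians were -0.03 and -0.29, against 0.45 and 0.03 over all genes, and 0 members and 0.293% of all tested genes were called by limma, with 2 X-linked and 9 autosomal members at an unadjusted p under 0.05.

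In untreated dpy-27::AID against WT 4 autosomal members fell and 0 members rose, while 0.586% of all tested genes were called and 0.276% of all autosomal genes were called lower. They were nlp-26 (26.1, 26.6 and 93.0 FPKM in dpy-27::AID, against 364, 368 and 108 FPKM in WT; -2.60 ± 0.51, adjusted p = 0.0213), flp-6 (61.9, 71.6 and 149 FPKM, against 222, 265 and 165 FPKM; -1.29 ± 0.28, adjusted p = 0.0291), nlp-24 (761, 835 and 1045 FPKM, against 2895, 3072 and 1316 FPKM; -1.38 ± 0.30, adjusted p = 0.0341) and flp-24 (225, 246 and 369 FPKM, against 722, 524 and 434 FPKM; -1.002 ± 0.23, adjusted p = 0.0446). In nlp-26 and nlp-24, WT replicate 3 lay near the dpy-27::AID libraries while WT replicates 1 and 2 lay far above. All 49 autosomal nlp genes and all 13 X-linked flp genes lay below 0, with medians of -0.87 and -0.62. Over all tested genes the medians were 0.03 on autosomes and 0.06 on the X. Scaled to equal FPKM sums, 41 of 49 and 11 of 13 lay below 0, with medians of -0.49 and -0.25. Of all tested genes, 3048 of 11236 autosomal and 550 of 2061 X-linked genes then lay below 0, with medians of 0.39 and 0.41. As deposited, 17 of 91 autosomal members had all dpy-27::AID libraries lower, against 5.73% of all autosomal genes. Without dpy-27::AID replicate 3, 34 members were called, and without WT replicate 3, 15. The share of all tested genes called in those fits is not given, so the counts show only a dependence on single libraries. Without dpy-27::AID replicate 1, dpy-27::AID replicate 2 or WT replicate 1 the count was 0 in each case, and without WT replicate 2 it was 2.

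In untreated TIR-1; dpy-27::AID; cec-4 against WT the X-linked nlp-53 fell (20.9, 19.5 and 23.2 FPKM in TIR-1; dpy-27::AID; cec-4, against 53.1, 49.5 and 57.4 FPKM in WT; -1.33 ± 0.29, limma adjusted p = 0.0209), as did flp-24 (278, 262 and 349 FPKM, against 722, 524 and 434 FPKM; -0.90 ± 0.23, adjusted p = 0.0430), and 0 members rose. Of all tested genes 1.73% were called, with 0.097% of all X-linked and 0.792% of all autosomal genes called lower. The medians were -0.51 for X-linked and -0.65 for autosomal members, against 0.23 and 0.07 over all tested genes, and 13 of 32 X-linked and 24 of 91 autosomal members had all TIR-1; dpy-27::AID; cec-4 libraries lower, against 5.97% and 7.91% of all X-linked and autosomal genes. Scaled to equal FPKM sums, the medians were -0.28 and -0.01 for X-linked flp and nlp genes and -0.52 and -0.27 for autosomal ones. Over all tested genes the medians were then 0.56 on the X and 0.40 on autosomes. The molting genes summed to 1679 to 2411 FPKM in TIR-1; dpy-27::AID; cec-4, against 951 to 1047 FPKM in WT, and the epidermal markers to 4723 to 5737 FPKM, against 1043 to 2834 FPKM, with nas-37, ptr-4 and che-14 called higher, and their part was not tested. The untreated level of nlp-53 in this strain, which is also the baseline of its auxin comparison, thus lay below WT, and its level with auxin (47.3, 76.7 and 82.4 FPKM) overlapped WT. The count of 2 became 8 without WT replicate 2 or WT replicate 3 and 0 without WT replicate 1 or any TIR-1; dpy-27::AID; cec-4 library.

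The comparisons with WT depended on scaling and on single libraries. Counts from these other fits come without the share of all tested genes called in the same fit, so they show only this dependence. Scaled to equal FPKM sums, the median over all tested genes was 0.36 to 0.46 in the 6 comparisons with WT. Under this scaling the autosomal medians in dpy-21 against WT were -0.42 for both flp and nlp genes, and 1 member was called. Still below 0 were 17 of 17 autosomal flp genes, against 3258 of 11236 autosomal genes, whose median was 0.31. In untreated TIR-1; dpy-27::AID against WT the autosomal flp and nlp medians turned to 0.06 and 0.01, against 0.40 over all tested autosomal genes. With only the libraries of the 2 compared conditions in the fit, limma called 0 members in each comparison with WT that had calls. In dpy-21 against WT the count of 8 calls became 13 without WT replicate 2, 12 without WT replicate 3, 2 without WT replicate 1 and 1 without dpy-21 replicate 2 or replicate 3. In dpy-21; cec-4 against WT the count of 4 became 9 without WT replicate 3, 2 without WT replicate 1, 1 without dpy-21; cec-4 replicate 1 or 2 and 0 without dpy-21; cec-4 replicate 3. When single libraries were left out, the gap between X-linked and autosomal medians stayed at 0.64 to 0.79 in dpy-21 against WT. In dpy-21; cec-4 against WT it stayed at 0.65 to 0.88. Scaling moves X-linked and autosomal values almost alike, and fitting only the compared conditions leaves each difference unchanged, so neither could test this gap.

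Markers moved with some of these differences. In dpy-21 against WT the 11 tested molting genes all lay above 0, nas-37 and ptr-4 rose, and the list's summed level was 1290.3 to 1797 FPKM in dpy-21, against 951 to 1047 FPKM in WT. The epidermal markers summed to 3056 to 5022 FPKM in dpy-21, against 1043 to 2834 FPKM in WT, and the neuronal markers to 756 to 831 FPKM in dpy-21, against 797 to 1072 FPKM in WT, with 0 genes called by limma in either list. In untreated dpy-27::AID the neuronal markers summed to 624 to 815 FPKM, the epidermal markers to 2789 to 8296 FPKM and the molting genes to 1133 to 3278 FPKM, and against WT the epidermal gene che-14 rose. Their part in the peptide differences was not tested.

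Set against cec-4, which avoids the WT libraries, dpy-21; cec-4 had medians of 0.68 for X-linked and -0.15 for autosomal members, against 0.61 and -0.08 over all tested genes. Of the X-linked members 28 of 32 lay above 0, with medians of 0.60 for flp genes and 0.80 for nlp genes, and 14 of 32 had all dpy-21; cec-4 libraries higher, against 37% of all X-linked genes. Limma called 0 members, while 1.56% of all tested genes were called, and 7 X-linked and 8 autosomal members had an unadjusted p under 0.05. The X-linked flp-32 came nearest, with 169.9, 162 and 209 FPKM in dpy-21; cec-4, against 140, 44.5 and 93.9 FPKM in cec-4 (1.10, adjusted p = 0.0643). Every dpy-21; cec-4 library lay above every cec-4 library for this gene.

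No member was called between both dpy-21 genotypes. In dpy-21; cec-4 against dpy-21 the medians were 0.26 for X-linked and 0.20 for autosomal members, against 0.07 and -0.03 over all tested genes, with 0 members and 0% of all tested genes called by limma, and 4 X-linked and 6 autosomal members at an unadjusted p under 0.05. The interaction of dpy-21 and cec-4 had 0 members called by limma, 0.0526% of all tested genes called, and 6 X-linked and 18 autosomal members at an unadjusted p under 0.05. Its medians were 0.62 for X-linked and 0.67 for autosomal members, against 0.00 and -0.07 over all tested genes. This interaction includes the WT libraries, whose peptide levels were high.

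The X-linked insulin genes lay low and varied between libraries, and neither was called in any comparison. With auxin, ins-9 was listed at 0 in all 3 TIR-1; dpy-27::AID; cec-4 libraries, against 2.78, 1.62 and 1.65 FPKM in TIR-1; dpy-27::AID (limma adjusted p = 0.168), and ins-39 had 0, 0 and 1.72 FPKM in TIR-1; dpy-27::AID; cec-4, against 8.41, 4.8 and 14.9 FPKM in TIR-1; dpy-27::AID (adjusted p = 0.0717). Without auxin, ins-9 had 0, 0.266 and 0.214 FPKM in dpy-21; cec-4, against 7.32, 8.28 and 4.56 FPKM in dpy-21, and ins-39 was listed at 0 in all dpy-21; cec-4 libraries, against 1.04, 0.995 and 5.95 FPKM in dpy-21. In both comparisons both genes were lower in every library of the strain that also carried cec-4, without a call. This direction was not shared by all cec-4 strains. Against WT, the median of the X-linked pair was 2.01 in untreated cec-4 and 0.29 in untreated TIR-1; dpy-27::AID; cec-4, and -0.69 in dpy-21; cec-4. Between auxin and no auxin in TIR-1; dpy-27::AID; cec-4 the libraries of both genes overlapped. Autosomal insulins had medians of -0.09 with auxin against no auxin in TIR-1; dpy-27::AID; cec-4, -0.59 in TIR-1; dpy-27::AID and -0.44 in dpy-21 against WT.

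Of 21 genes of prohormone processing and secretion 16 were tested. Of all tested genes 3.66% were called in dpy-21 against WT and 4.3% in dpy-21; cec-4 against WT. The share was 1.73% in untreated TIR-1; dpy-27::AID; cec-4 against WT and 6.4% in that strain with auxin against no auxin. In dpy-21 against WT egl-21, the carboxypeptidase E that trims cleaved precursors, fell (233, 179 and 185 FPKM in dpy-21, against 430, 321 and 539 FPKM in WT; -1.09, limma adjusted p = 0.00875), as did sbt-1, the 7B2 chaperone of the EGL-3 convertase (-0.94, adjusted p = 0.0230), and pghm-1, an enzyme of peptide amidation (-1.15, adjusted p = 0.0376), while the X-linked vesicle gene rund-1 rose (1.26, adjusted p = 0.0493). The first 3 of these are autosomal, and rund-1 also rose in dpy-21; cec-4 against WT. In untreated TIR-1; dpy-27::AID; cec-4 against WT egl-21 and sbt-1 fell. In TIR-1; dpy-27::AID; cec-4 with auxin against no auxin the X-linked vesicle gene hid-1 rose (0.85, adjusted p = 0.0404) and the amidation gene pamn-1 fell (-0.65, adjusted p = 0.0437).

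Of 110 candidate peptide receptor genes 84 were tested (28 X-linked, 56 autosomal). In TIR-1; dpy-27::AID; cec-4 with auxin against no auxin 2 rose, both X-linked, and 0 fell, while 14.8% of all X-linked genes were called higher. The first, seb-3, the receptor of the nlp-49 peptides, had 32.7, 33 and 28.6 FPKM with auxin, against 16.8, 13.5 and 14.8 FPKM without (1.07, limma adjusted p = 0.0152), and the second was npr-28 (1.19, adjusted p = 0.0415). The receptor medians were 0.87 for X-linked and 0.02 for autosomal genes, against 0.67 and -0.13 over all tested genes. In dpy-21 against WT the X-linked npr-21 rose (2.36, adjusted p = 0.0308) and 0 receptor genes fell, while 3.66% of all tested genes were called. The receptor medians were 0.52 and 0.28, against 0.66 and 0.00 over all tested genes. Receptor genes on autosomes therefore did not share the negative median of the autosomal peptide genes in that comparison.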

How the data were processed

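Poly(A) RNA of whole L3 larvae was measured in 33 libraries, grouped by their sample labels. Reads were trimmed by the authors with cutadapt 2.3, checked with FastQC 0.11.8, and quantified on WBcel235 transcripts with Salmon 1.9.0, and FPKM values per gene were deposited by the authors. How FPKM was computed from Salmon output is not given in the sources used here, nor are read totals. The authors also used DESeq2 1.42.0, which needs counts and was not run here.

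Gene symbols and positions came from Ensembl release 115 (WBcel235). R 4.3.3 with limma 3.58.1 was fitted to log2(FPKM + 0.1) of 13309 genes with a mean of at least 1 FPKM, with 11 condition means over all 33 libraries, a trend and no replicate block, for 14 comparisons and 2 interactions. Python 3.11.15, numpy 2.4.6, pandas 2.3.3 and matplotlib 3.10.9 were used for summaries. The procedure was tested on simulated data. The members and lists were chosen with earlier results of these data known. Named were all called members where at most 12 were called, otherwise the 8 with the smallest adjusted p in each direction, and in each family the 3 X-linked and 3 autosomal members of highest mean and the 3 of widest range. Besides genes marked in the text, members nearest the threshold, flp-28 and nlp-49 and the genes called only without a library were named after their values were seen. Alternatives were pseudocounts of 1 and 0.01, no filter, a mean of at least 5 FPKM, median-of-ratios scaling, a replicate block, only the compared conditions and leaving out each library, and 2 were added after the data were seen.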

Additional observations from a re-analysis of the deposited data

How the results depend on the processing

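The gap between X-linked and autosomal medians kept its sign under all settings run in the 6 comparisons where it exceeded 0.6. Some settings could hardly have changed it. Scaling moves X-linked and autosomal values almost alike, and a replicate block or fitting only the compared conditions leaves each difference unchanged. Leaving out each library in turn gave 0.81 to 0.98 with against without auxin in TIR-1; dpy-27::AID; cec-4 (0.80 with a pseudocount of 1), 0.64 to 0.76 for TIR-1; dpy-27::AID, 0.60 to 1.002 for TIR-1; dpy-27::AID against dpy-27::AID on auxin, 0.65 to 0.90 for dpy-21; cec-4 against cec-4, and 0.64 to 0.79 for dpy-21 and 0.65 to 0.88 for dpy-21; cec-4 against WT. Elsewhere it was -0.10 to 0.33 for cec-4 against WT, 0.035 to 0.20 for dpy-21; cec-4 against dpy-21 (0.17 with no filter), -0.20 to -0.016 for TIR-1; dpy-27::AID; cec-4 against TIR-1; dpy-27::AID on auxin, -0.11 to 0.05 for cec-4 with auxin, -0.12 to 0.18 for dpy-27::AID with auxin, and, against WT, -0.032 to 0.27 for dpy-27::AID, 0.16 to 0.38 for TIR-1; dpy-27::AID (0.57 with WT replicate 3 alone) and -0.054 to 0.11 for TIR-1; dpy-27::AID; cec-4. Counts of called members moved more. They are given without the share of all tested genes called in the same fit, so they do not set the members apart from other genes. Leaving out a library gave 1 to 13 for dpy-21 against WT, 0 to 9 for dpy-21; cec-4 against WT, 0 to 34 for dpy-27::AID against WT, 0 to 8 for TIR-1; dpy-27::AID; cec-4 against WT, 0 to 3 for cec-4 (2 without WT replicate 2, 3 without WT replicate 3) and for TIR-1; dpy-27::AID (3 without WT replicate 3) against WT, 7 to 9 with against without auxin in TIR-1; dpy-27::AID; cec-4, 0 to 5 for TIR-1; dpy-27::AID against dpy-27::AID on auxin, and 0 to 1 for dpy-21; cec-4 against cec-4, TIR-1; dpy-27::AID auxin against no auxin, both auxin-treated TIR-1 strains against each other and both interactions. Equal FPKM sums, a scaling added after the data were seen, gave 1 for dpy-21, 1 for dpy-21; cec-4, 2 for dpy-27::AID and 0 for TIR-1; dpy-27::AID; cec-4, each against WT. WT replicate 3 alone, also added, gave 7 for cec-4, 8 for dpy-27::AID, 4 for TIR-1; dpy-27::AID, 5 for TIR-1; dpy-27::AID; cec-4 and 6 for the interaction of dpy-21 and cec-4. Fitting only the compared conditions gave 0 for dpy-21, dpy-21; cec-4, dpy-27::AID and TIR-1; dpy-27::AID; cec-4 against WT, 2 for dpy-21; cec-4 against cec-4, 2 for the auxin-treated TIR-1 strains and 3 for the interaction of auxin and cec-4. With no filter dpy-21 against WT had 5 and TIR-1; dpy-27::AID; cec-4 against WT had 1, and with a mean of at least 5 FPKM the second had 4. A pseudocount of 1 gave 1 for TIR-1; dpy-27::AID auxin against no auxin, for TIR-1; dpy-27::AID against dpy-27::AID and for the auxin-treated TIR-1 strains. The cause of these shifts was not tested.

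Replicate numbers were not used to pair the libraries, since in no comparison did all 3 same-numbered pairs correlate above 0.1. Weak pairing is not excluded. In dpy-21; cec-4 against dpy-21, 6 of 6 libraries correlated best with their own number (r of 0.022 to 0.030). The same held between the auxin-treated TIR-1 strains (r of 0.010 to 0.038), against 0 to 4 of 6 libraries in the other comparisons. With a replicate block the counts were 7 for dpy-21, 4 for dpy-21; cec-4, 4 for dpy-27::AID and 3 for TIR-1; dpy-27::AID; cec-4 against WT, 13 with against without auxin in TIR-1; dpy-27::AID; cec-4 and 1 for the interaction of auxin and cec-4. In a simulation of dpy-21 against WT on 13309 genes, limma called 29 of 200 genes changed by 1 and 117 of 200 changed by 2 on the log2 scale, so a member without a call is not shown to be unchanged.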

Other observations

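Peptide genes outside the symbol rule were read in the comparison with the most calls, TIR-1; dpy-27::AID; cec-4 with auxin against no auxin. There 6.4% of all tested genes were called, and 14.8% of all X-linked genes were called higher. Of 9 other peptide genes, all tested, the X-linked pdf-2, which encodes a pigment-dispersing-factor-like peptide, rose (175, 235.3 and 209 FPKM with auxin, against 108, 95.3 and 124 FPKM without; 0.91, limma adjusted p = 0.0404), and 0 fell. Of 11 caenacin genes (cnc), antimicrobial peptides of the epidermis related to the nlp-29 cluster, 10 were tested. The X-linked cnc-8 rose (1941, 1695 and 1864 FPKM with auxin, against 698, 641 and 679 FPKM without; 1.45, adjusted p = 0.00598), as did cnc-10 (529.7, 551 and 582 FPKM, against 192, 132 and 173 FPKM; 1.76, adjusted p = 0.00250), while cnc-3 fell (53.7, 41.0 and 58.8 FPKM, against 201, 198 and 189.6 FPKM; -1.95, adjusted p = 0.000607). In none of these 4 genes did the groups overlap. In dpy-21 against WT limma called 0 genes of either list.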
